A study of Mus musculus with 64 samples.

Results

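The comparison set 3 arrays of untreated late 2-cell mouse embryos, titled 54h-Control, against 3 arrays of untreated early 2-cell embryos, titled 43h-Control. The members were the 6 arrays so titled, of 64 in the series, taken by title. The series followed mouse embryos from the unfertilized egg to the blastocyst on 28 arrays of 7 stages, and treated or untreated embryos between 21 and 54 h on 36 arrays of 12 groups of 3. Embryos labelled AM at 54, 43 and 32 h, DMSO at 43 and 32 h, and Control at 32 and 21 h (the late and early 1-cell embryo) are used below, with 4 arrays each of 4-cell and 2-cell embryos from the stage arrays. The labels do not give the strain, the number of embryos pooled, the dose or the hour from which time was counted, nor do they spell out AM. From knowledge of the study it is α-amanitin, which blocks RNA polymerase II, and DMSO is dimethyl sulfoxide, a solvent. The labels call the arrays replications without saying that they came from separate embryo pools. The p-values thus measure the spread between arrays of a group, which may be technical. In the main fit that spread was taken over all 36 treatment arrays and not from the 6 compared alone.

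The mouse embryo starts on RNA stored in the egg, and its own genome is switched on in a weak wave late in the 1-cell stage and in a strong wave during the 2-cell stage. Over the same hours much of the maternal RNA is degraded, partly by factors the egg already holds and partly by factors made from the embryo's own genes. Ribosome production, RNA processing and metabolism are among the functions known to be served by the strong wave.

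Each array carried 2 colours, the embryo RNA and a common reference. The deposited log10 ratio was turned into the log2 ratio of embryo over reference and centred on the median of its array, so a level below is embryo RNA relative to the reference at that probe, and levels of different probes were not compared. The direction of the ratio is not stated by the labels, so it is likely and not settled. It rests on the egg RNAs Btg4 and Zp2. Turned this way, Btg4 averaged 2.03 ± 0.52 in blastocysts and 6.32 ± 0.34 in unfertilized eggs (SD, n = 4 each). Zp2 averaged 0.86 ± 0.34 in blastocysts and 3.04 ± 0.46 in unfertilized eggs. Dppa3, another egg RNA examined for this, was also higher in unfertilized eggs, but by less than its SD there. It therefore does not help to set the direction. With the ratio turned this way, embryos given AM until 54 h read lower than 54h-Control at 880 probes and higher at 218. Arrays give a share of the labelled RNA, so a change per embryo and a change in total RNA cannot be told apart. Array number limits the precision. On the embryo log2 scale before centring, array 1 of 43h-Control had a median of -0.35, against 0.00 to 0.04 on the other 5 arrays. Arrays correlated with their group mates at a mean r of 0.960 to 0.961 at 54 h and 0.943 to 0.954 at 43 h. The arrays labelled 43h-AC, not compared here but part of the estimate of spread, did so at 0.760 to 0.852. Cumulus and granulosa cell markers passed the test at 0 of 5 measured genes, of which 2 read above the reference at 54 h. At an unadjusted p under 0.05, 1 of the 5 was higher and 0 lower. Of all 3089 genes with a probe of 1 gene symbol, 482 were higher and 391 lower at that p. Each gene was taken by its probe of lowest p. With quantile normalization 1 of the 5 markers was called. Ptprc, the measured blood marker, was not called.

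Between the early and the late 2-cell embryo 630 of 22575 probes were called (2.79% of probes; limma with Benjamini-Hochberg adjustment, adjusted p under 0.05). Of these, 329 were higher (1.46%) and 301 lower (1.33%) at 54 h. Were the ratio to run the other way, the 329 would be lower and the 301 higher, and each rise named below would be a fall of the same size and each fall a rise. At least 2-fold changes made up 279 of the rises and 289 of the falls, and at least 4-fold changes 48 and 87. The 3 arrays of 54 h and the 3 of 43 h did not overlap at 622 of the 630 called probes, against 29.9% of all probes. Since the calls were made on the difference between these same arrays, this only describes them. Among the 3089 genes with a probe of 1 gene symbol, 166 were called by the probe of lowest p (5.37%), 74 of them higher (2.4%) and 92 lower (2.98%). With the embryo log2 values not centred, 475 probes were higher and 184 lower. With one interquartile range for all arrays 389 were higher and 216 lower. With quantile normalization 521 were higher and 401 lower, so both the balance and the total depended on the scaling.

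The counts rested strongly on single arrays. Without array 3 of 43h-Control 50 probes were called, without array 1 of it 331, and without array 2 of it 609. Without arrays 1, 2 and 3 of 54h-Control in turn, 313, 125 and 149 were called. Array 2 of 54h-Control was the highest of its group at 197 of the 329 probes that rose, and array 1 of 43h-Control the lowest at 146. Array 3 of 43h-Control was the lowest of its group at 165 of the 329 and the highest at 157 of the 301 that fell. Of the called genes named below from the gene lists and second probes, 35 lost their call without that array, and Luc7l, Rpl37a and the second called Meg3 probe kept it. Its part in the calls beyond these counts was not tested. With the 43h-DMSO embryos in place of 43h-Control, a choice made after seeing the data, 150 probes were higher and 356 lower.

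The 14 rises and 14 falls named first were chosen to have no overlap between the hours, so their lack of overlap is no separate result. The largest rise among named genes was that of Meg3, a maternally expressed imprinted long noncoding RNA. Its strongest probe read 4.83, 4.13 and 4.33 at 54 h, against 1.50, 2.23 and -0.04 at 43 h. The groups did not overlap, and the difference was 3.20 ± 0.58 (SE), a 9.18-fold rise (adjusted p = 0.0040). Another of its 6 probes was called as well, at 2.69, 2.05 and 2.88 in 54h-Control and 0.13, 0.56 and 0.36 in 43h-Control, a difference of 2.19. The other 4 Meg3 probes were not called, with differences between -0.09 and 0.70, so the rise was carried by part of the probes assigned to the gene.

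Cd247, the zeta chain of the T cell receptor complex, read 2.68, 2.28 and 2.01 at 54 h and -0.33, 0.09 and -0.59 at 43 h. All late arrays lay above the early ones, by 2.60 ± 0.48 (adjusted p = 0.0045). Taf7l, a paralog of a subunit of the general transcription factor TFIID, stood at 4.60, 4.38 and 4.65 at 54 h and at 2.14, 2.63 and 1.03 at 43 h, a difference of 2.61 ± 0.53 (adjusted p = 0.0077). The hours did not overlap, and the early arrays were the more widely spread. A second Taf7l probe differed by 0.48 and was not called. Tfrc, the transferrin receptor that takes up iron, read 1.54, 2.09 and 1.35 at 54 h and -0.05, -0.71 and -0.86 at 43 h, a rise of 2.20 ± 0.44 (adjusted p = 0.0077). The other Tfrc probes differed by 1.02 and 0.21 and were not called.

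Among the remaining rises, Pa2g4, a growth-regulating protein of the nucleolus and cytoplasm, read -0.82, 0.18 and -0.35 at 54 h and -2.10, -1.59 and -3.30 at 43 h, which is 4.00-fold higher (adjusted p = 0.0054). Castor1, the arginine sensor of the mTOR pathway, rose by 2.41 and Elovl6, a fatty acid elongase, by 2.19 on 1 of its 4 probes, the others differing by between -0.06 and 0.12. Ggt6, of the gamma-glutamyltransferase family, rose by 2.35. Tra2a, a splicing regulator, rose by 2.35, Tspan4, a tetraspanin of the cell membrane, by 2.13, and Ccdc192, a coiled-coil gene, by 2.33. Nolc1, a nucleolar chaperone of small nucleolar ribonucleoproteins, rose by 2.00, and Wipi2 and Ctsl, described with the lysosome below, each by 2.21. In 10 of these 14 genes the highest late array was array 2. In 13 of the 14 the lowest early array was array 3, and without array 3 none of the 14 passed the threshold, with adjusted p between 0.052 and 0.17.

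**Figure D1:**
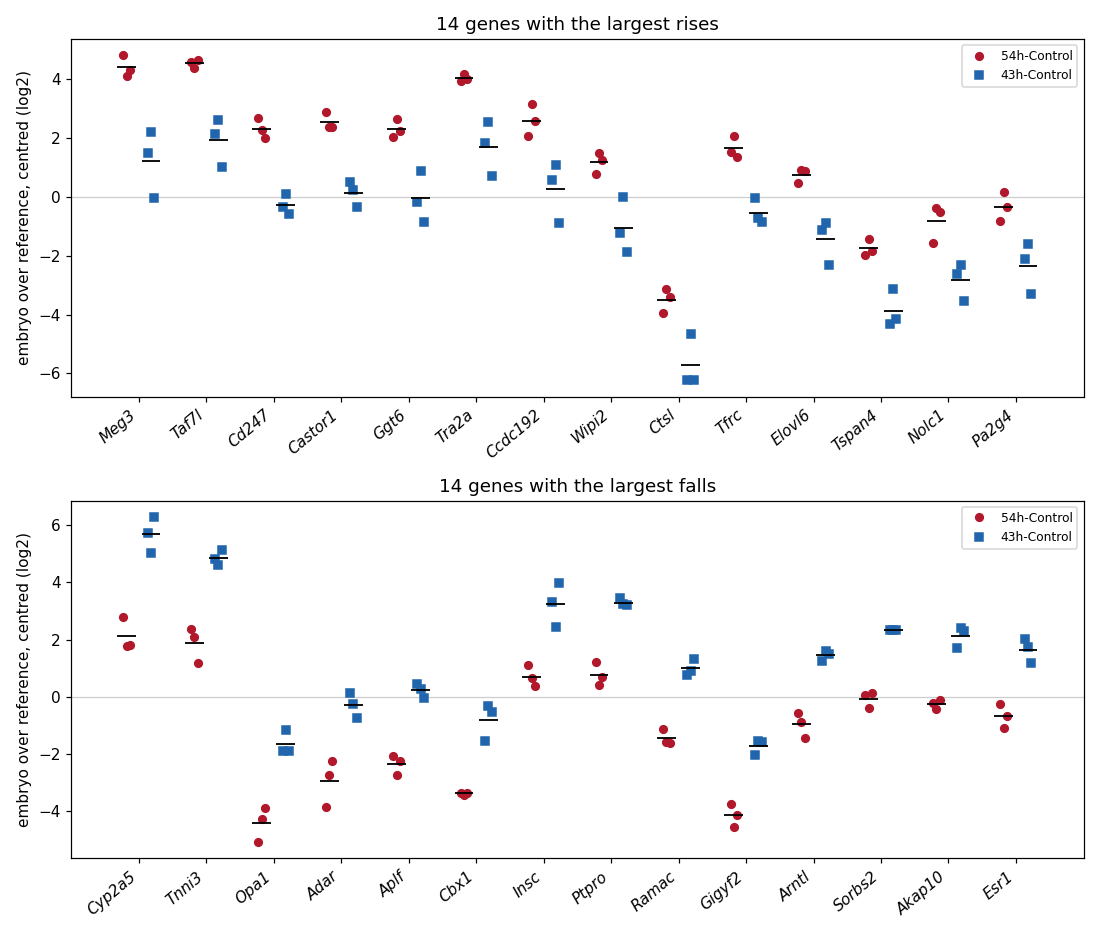
Centred log2 ratio of embryo over reference on each array for the 14 genes with the largest called rises (top) and the 14 with the largest called falls (bottom), with 54h-Control as red circles, 43h-Control as blue squares and group means as black bars. The 28 genes were chosen so that the 3 arrays of each hour do not overlap. Among the rises the 43 h arrays spread more widely than the 54 h arrays for most genes, as for Meg3 and Taf7l.

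Cyp2a5, a cytochrome P450 enzyme, had the largest fall among named genes. It read 2.78, 1.77 and 1.79 at 54 h, against 5.71, 5.03 and 6.28 at 43 h. The late level was 11.8-fold lower (difference -3.56 ± 0.66, adjusted p = 0.0042), and the groups lay far apart. Tnni3, which encodes the cardiac form of troponin I and was high in these early embryos relative to the reference, read 2.35, 2.09 and 1.17 at 54 h and 4.82, 4.60 and 5.13 at 43 h, a 7.90-fold fall (adjusted p = 0.0078). Both kept a level above the reference at 54 h.

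Sorbs2, a cytoskeletal adaptor, gave the lowest adjusted p of the named falls. Its arrays read 0.08, -0.38 and 0.12 at 54 h and 2.34, 2.32 and 2.35 at 43 h, a difference of -2.40 ± 0.35 (adjusted p = 0.00091). Akap10, an anchor for protein kinase A, read -0.21, -0.41 and -0.12 at 54 h and 1.72, 2.39 and 2.30 at 43 h, a difference of -2.38 ± 0.38 (adjusted p = 0.0016). Aplf, a DNA end-joining factor, read -2.05, -2.73 and -2.23 at 54 h and 0.46, 0.27 and -0.03 at 43 h, a difference of -2.57 ± 0.45 (adjusted p = 0.0031). These genes and Opa1 and Adar were the 5 of the 28 still called without array 3 of 43h-Control.

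Opa1, the GTPase that fuses the inner mitochondrial membrane, fell on both of its probes, by 2.77 and by 1.66. Adar, which deaminates adenosine in double-stranded RNA, fell by 2.65, and Cbx1, a heterochromatin protein, fell by 2.56. Insc, an adaptor for spindle orientation, fell by 2.52 and Ptpro, a receptor tyrosine phosphatase, fell by 2.52. Ramac, a cofactor of mRNA cap methylation, fell by 2.45. Gigyf2, a repressor of translation, fell by 2.42 on the named probe, while its other probes differed by 0.77 and -0.37 and were not called. Arntl, a transcription factor of the circadian clock, fell by 2.40 and Esr1, an oestrogen receptor, fell by 2.33.

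Replacing the early control arrays with the 43h-DMSO arrays left 16 of these 28 genes called and turned no direction. The difference moved by over 1.5 times for Ctsl (0.54), Wipi2 (1.07), Tspan4 (0.96), Ccdc192 (1.35), Elovl6 (1.40), Nolc1 (1.26), Pa2g4 (1.12), Tra2a (1.53), Esr1 (-1.12) and Cyp2a5 (-2.33). None of these 10 was then called. Ctsl, for one, read -3.53, -4.99 and -3.56 in 43h-DMSO, so 2 of those arrays lay within the range of 54h-Control. Among genes described below, the second called Meg3 probe (1.19), Hspb1 (0.82), Clcn7 (0.18), Hsph1 (0.21), Cdkn1a (0.41), Cdk1 (0.32), Rangap1 (0.34), Kdm3a (0.56), Eif2a (0.60), Got2 (0.50), Tpra1 (-0.67) and Atp6v1b2 (-0.70) were each reduced by over 1.5 times and not called.

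Lysosomal and autophagy genes moved in both directions. Of 34 measured, 4 were called higher and 3 lower, against 2.4% and 2.98% of all genes. Ctsl, a lysosomal cysteine protease, read -3.94, -3.13 and -3.40 at 54 h and -6.21, -4.66 and -6.23 at 43 h, a rise of 2.21 ± 0.51 (adjusted p = 0.017). Lamp2, a glycoprotein of the lysosomal membrane, read -0.98, -0.52 and -0.68 at 54 h and -3.19, -2.30 and -2.38 at 43 h, a 3.72-fold rise (adjusted p = 0.013). Both rose without overlap between the hours. Wipi2, which binds a membrane phosphoinositide during autophagosome formation, read 0.78, 1.51 and 1.25 at 54 h and -1.24, -0.01 and -1.86 at 43 h (adjusted p = 0.0083), while Clcn7, which carries chloride across the lysosomal membrane, rose by 2.00 on 1 of its 3 probes.

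Against these, Lipa, the lysosomal acid lipase, read 1.39, 0.98 and 1.10 at 54 h and 3.53, 2.90 and 3.65 at 43 h, a 4.60-fold fall (adjusted p = 0.0055). Rab7, a GTPase of late endosomes, fell by 1.66, and Atp6v1b2, a subunit of the vacuolar proton pump, fell by 1.24. Glb1 and Atp6v0d1 were not called, with differences of 1.22 and -0.66. The list's median difference was 0.13, the same as that of all 3089 genes at this rounding. When each gene was taken as the mean of its probes, 1 gene of the list was called higher and 3 lower.

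The 250 bases before the start of 4 of these genes are shown because Hspb1 (a small heat shock protein, described below), Ctsl and Taf7l rose in control embryos while Lipa fell, and because Ctsl and Lipa, which serve the same organelle, went opposite ways. The sequences are RefSeq promoter windows, 5′ to 3′ on the strand of the gene, and whether embryos start transcription there was not tested. Capitals mark matches on either strand to the TATA box TATAAA, the promoter element CCAAT, the GC box GGGCGG or the E-box core CACGTG. They also mark a pair of heat shock units written GAANNTTC. In the Taf7l window TATAAA matches on opposite strands overlap.
Hspb1, GRCm38.p6 chr5:135887669-135887918, plus strand: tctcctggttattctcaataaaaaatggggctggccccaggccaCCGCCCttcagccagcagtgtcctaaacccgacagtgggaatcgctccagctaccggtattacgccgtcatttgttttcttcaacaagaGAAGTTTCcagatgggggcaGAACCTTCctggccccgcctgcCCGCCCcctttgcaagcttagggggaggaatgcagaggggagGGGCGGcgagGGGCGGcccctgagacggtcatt
Ctsl, GRCm38.p6 chr13:64370521-64370770, minus strand: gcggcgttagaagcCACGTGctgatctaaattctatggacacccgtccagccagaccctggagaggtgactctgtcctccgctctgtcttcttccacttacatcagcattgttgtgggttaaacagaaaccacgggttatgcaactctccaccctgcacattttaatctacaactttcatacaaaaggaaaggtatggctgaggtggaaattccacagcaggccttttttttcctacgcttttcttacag
Taf7l, GRCm38.p6 chrX:134476491-134476740, minus strand: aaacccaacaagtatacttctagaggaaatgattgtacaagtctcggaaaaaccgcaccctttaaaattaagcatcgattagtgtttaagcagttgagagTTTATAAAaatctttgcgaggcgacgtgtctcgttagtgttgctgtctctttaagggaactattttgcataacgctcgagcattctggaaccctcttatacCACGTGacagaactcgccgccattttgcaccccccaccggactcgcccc
Lipa, GRCm38.p6 chr19:34527475-34527724, minus strand: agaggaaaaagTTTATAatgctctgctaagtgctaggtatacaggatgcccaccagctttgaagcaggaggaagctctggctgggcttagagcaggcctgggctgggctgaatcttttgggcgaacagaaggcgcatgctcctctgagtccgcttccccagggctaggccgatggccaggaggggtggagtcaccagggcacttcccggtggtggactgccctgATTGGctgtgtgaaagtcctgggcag

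The Hspb1 window held GAANNTTC at 117 and 97 bases before the start and GGGCGG at 4 places. CACGTG lay at 236 bases in the Ctsl window and at 49 bases in the Taf7l window, and CCAAT at 26 bases in the Lipa window. TATAAA lay at 150 and 148 bases in the Taf7l window and at 239 bases in the Lipa window. Of all 32851 windows of this length 6.69% held GAANNTTC, 6.02% CACGTG, 33.9% CCAAT, 32.7% GGGCGG and 12.4% TATAAA. By gene, with windows for 62 of the 73 genes called only higher, 10 held CACGTG (16.1%), against 5 of 74 matched genes called only lower (6.76%) and 268 of 2500 measured genes with a window (10.7%). TATAAA was found in 5 of the 62 (8.06%), in 12 of the 74 (16.2%) and in 8.80% of measured genes, and GGGCGG in 64.5%, 62.2% and 65.8%. GAANNTTC was found in 2 of the 62 (3.23%), in 8 of the 74 (10.8%) and in 6.76% of measured genes, and CCAAT in 29.0%, 39.2% and 39.9%. A match is a description of letters and not of a site in use.

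In the ribosome biogenesis list 29 of 36 genes had a positive difference and the median was 0.53, against 1740 of 3089 and 0.13 for all genes, but Nolc1 alone was called. Its named probe read -1.58, -0.38 and -0.51 at 54 h and -2.62, -2.32 and -3.52 at 43 h (adjusted p = 0.027), and its other probes differed by 0.86 and -0.44. Krr1, a factor of small-subunit assembly, differed by 0.76 and was not called. As means over probes, 0 of the 36 were called.

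Among 24 translation factors 3 were called higher and 1 lower, against 2.4% and 2.98% of all genes, and 16 differences were positive. Eif2d, which delivers initiator tRNA outside the usual route, read 0.91, 0.97 and 0.66 at 54 h and -0.99, 0.06 and -0.75 at 43 h, a rise of 1.40 ± 0.35 (adjusted p = 0.026). Its other probe differed by -0.41 and was not called. Eif2a, another initiation factor, rose by 1.23, and Eif4e, the cap-binding protein, rose by 0.95. A second Eif4e probe went the other way and was not called, at -2.56, -2.06 and -2.27 at 54 h and -1.30, -0.79 and -0.27 at 43 h. Eif2ak4, the kinase that senses amino acid shortage, fell by 1.28. Of 24 genes for ribosomal proteins 12 had a positive difference and 1 was called, Rpl37a, at -2.57, -2.78 and -2.07 at 54 h and -0.54, -0.11 and -0.31 at 43 h, a 4.44-fold fall (adjusted p = 0.0016) that stayed called without each array in turn.

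Chaperone genes had 2 rises and no fall among 32 measured, against 2.4% and 2.98% of all genes, with a median difference of 0.16 against 0.13. Hspb1, a small heat shock protein, read -0.39, 0.07 and -0.08 at 54 h and -2.54, -0.99 and -2.33 at 43 h, a 3.52-fold rise (adjusted p = 0.010). Its other probe differed by 0.65 and was not called. Hsph1, a cochaperone of the Hsp family, rose by 1.25, although the hours overlapped, with -4.76 the lowest at 54 h and -4.65 the highest at 43 h. Of 12 proteasome genes 0 were called. At an unadjusted p under 0.05, 2 were higher and 0 lower, against 482 and 391 of all 3089 genes.

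Of 63 splicing genes measured 2 were called higher and 4 lower, against 2.4% and 2.98% of all genes. Luc7l, a splice site selection factor, read -5.40, -4.77 and -4.95 at 54 h and -6.30, -6.41 and -6.68 at 43 h (adjusted p = 0.0021), with 2 of the early arrays at the lower limit of the ratio. Tra2a, already described, was the other rise. Syf2, a spliceosome component, read -1.30, -1.25 and -1.34 at 54 h and 0.26, 0.93 and 1.06 at 43 h, a fall of 2.05 on the log2 scale (adjusted p = 0.0077). Srpk2, a kinase of splicing factors, fell by 1.01, Hnrnpa3, an RNA-binding protein, fell by 1.33, and Prpf18, which acts in the late steps of splicing, fell by 1.09.

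Genes of chromatin, the cell cycle, nuclear transport and metabolism showed few calls each, to be read against the same 2.4% and 2.98% of all genes. Of 71 chromatin genes Kdm3a, a histone demethylase, rose by 1.19, while Cbx1 and Tet3 fell. Tet3, the enzyme that oxidises 5-methylcytosine in the zygote, read -0.28, -0.36 and -0.85 at 54 h and 0.92, 1.45 and 1.31 at 43 h, a 3.30-fold fall (adjusted p = 0.017). Among 52 mitosis genes Cdk1, the kinase that drives entry into mitosis, rose by 1.25, Cdkn1a, which restrains those kinases, rose by 1.25, and Pafah1b1, a dynein regulator, fell by 1.81. Timeless, a replication fork protein, fell by 1.59 and was the one call of 31 replication genes. In nuclear transport 3 of 19 genes were called: Rangap1, which activates the GTPase cycle of Ran, rose by 1.19, and the import receptors Tnpo1 and Ipo8 fell by 1.71 and by 1.55.

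Metabolic lists gave 1 rise and 1 fall each. Got2, a mitochondrial aminotransferase, rose by 0.81 and Rpe, of the pentose phosphate pathway, fell by 1.58 among 21 genes of glycolysis and pyruvate use. Slc25a3, the mitochondrial phosphate carrier, rose by 1.11 and Sdha, a subunit of succinate dehydrogenase, fell by 1.41 among 17 respiration genes. Of 31 RNA decay genes Tut7, which adds uridine to RNA tails, rose by 0.82 and Cnot9, of the deadenylase complex, fell by 1.75. Med15, a Mediator subunit, fell by 0.92 and was the one call of 29 polymerase II genes.

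The ubiquitin conjugation list leaned downward, with 13 of 39 genes positive and a median difference of -0.45, against 0.13 for all genes. Huwe1, a ubiquitin ligase, was the one call, a fall of 0.91 on the log2 scale, while its other probe differed by 0.93 the other way. Ube2d3, a conjugating enzyme, differed by -1.85 (adjusted p = 0.050) and Rbx1, of the cullin ligases, by -1.99 (adjusted p = 0.055). The median was -0.11 when each gene was the mean of its probes, so the size of the lean depended on the choice of probe.

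**Figure D2:**
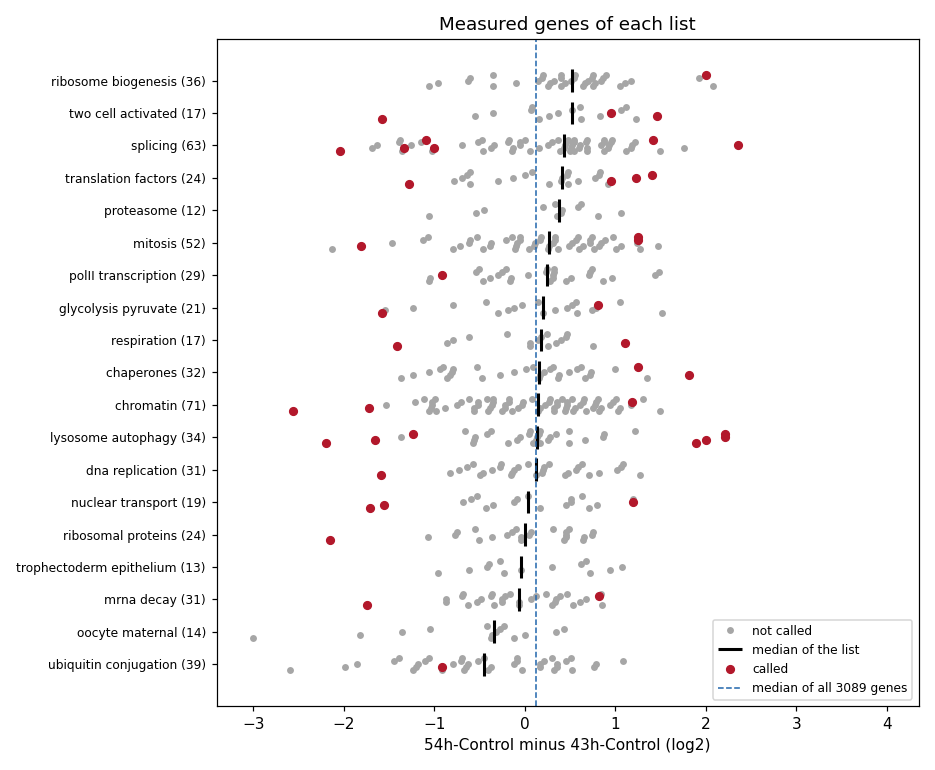
Difference between 54h-Control and 43h-Control (log2) for the measured genes of the lists with 10 or more genes, called genes in red and others in grey, with list medians as black bars and the median of all 3089 genes, 0.13, as a dashed line. Ribosome biogenesis lies highest by median (0.53) and ubiquitin conjugation lowest (-0.45), and most lists hold called genes on both sides.

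RNAs of the egg were measured at 14 genes of the oocyte list, and 0 were called in the 36-array fit. At an unadjusted p under 0.05, 0 were higher and 4 lower, against 482 and 391 of all 3089 genes. With quantile normalization 1 gene of the list was called. Of the 14, 3 had a positive difference and the median was -0.34, against 0.13 for all genes. Kit, a receptor kinase of the oocyte, read 1.32, 0.86 and 0.92 at 54 h and 2.80, 2.37 and 3.38 at 43 h. Zbed3, a partner of the maternal cortical complex, read 1.07, 0.27 and 0.53 at 54 h and 4.51, 3.41 and 2.96 at 43 h. Neither pair of groups overlapped, and the adjusted p-values were 0.058 and 0.13. The standard error for Zbed3 in the 36-array fit was 1.11. In the limma fit of the 6 control arrays alone, which called 1385 probes, the adjusted p was 0.013 for Kit and 0.0081 for Zbed3. Without 1 array in the 36-array fit it reached 0.19 for Kit and 0.36 for Zbed3, so their call depended on the fit. Btg4, an adaptor of the deadenylase that clears maternal RNA, read 6.64, 6.27 and 6.21 at 54 h and 6.99, 6.62 and 6.61 at 43 h, with 1 late and all 3 early arrays at the upper limit, so its change could not be measured in full. Dppa3, a maternal factor that protects methylation, and Zp2, a zona pellucida protein, differed by -0.32 and -0.12 and stayed above the reference on all 6 arrays.

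In the list of genes known to be activated in the 2-cell embryo 14 of 17 differences were positive, against 1740 of 3089 for all genes. The median was 0.52, against 0.13, and 2 genes were called higher and 1 lower, against 2.4% and 2.98% of all genes. Ier2, an immediate early gene, read -3.50, -3.15 and -3.47 at 54 h and -5.41, -3.94 and -5.15 at 43 h, a rise of 1.46 ± 0.40 (adjusted p = 0.044). Eif4e was the other rise. Tpra1, a membrane protein, read 1.22, 0.83 and 0.72 at 54 h and 2.87, 2.04 and 2.61 at 43 h, a fall of 1.58 (adjusted p = 0.044). Dppa4, a chromatin-associated protein of early embryos, differed by 0.83 and Zfp42, a zinc finger protein of early embryos, by 1.12, and neither was called. With 43h-DMSO as the early group, Ier2 differed by 0.01 and Eif4e by 0.36, and neither was called. The 13 trophectoderm and epithelial genes measured had 0 calls and 0 at an unadjusted p under 0.05. Of all 3089 genes 482 were higher and 391 lower at that p.

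With AM, the change over the same hours was measured on 6 arrays that the control comparison does not use. It gave 23 calls, 0 higher and 23 lower (0.102% of probes). With the replicate number as a block in the 36-array fit, its effect shared by all groups, it gave 22. A fit of the 6 AM arrays alone gave 0 calls with and without that block, with 3005 and 1927 probes at an unadjusted p under 0.05. Without arrays 1, 2 and 3 of 43h-AM in turn 12, 2 and 7 were called, and without arrays 1, 2 and 3 of 54h-AM 10, 56 and 23. Array 3 of 54h-AM held 79 probes at the upper limit, against 304 or more on each of the 6 control arrays. The 54h-AM arrays correlated with their group mates at a mean r of 0.897 to 0.919, lower than the 6 control arrays did. The 43h-AM arrays did so at 0.943 to 0.951. How far this lowered the AM calls was not tested.

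Probes that rose in control embryos stood nearly still in AM embryos. The 329 had a median AM change of 0.11 (quartiles -0.15 and 0.39), against 0.04 for all probes. Of these, 198 were positive, 131 negative and 0 called. The 301 probes that fell in control embryos had a median AM change of -0.92 (quartiles -1.33 and -0.55), 293 were negative and 8 were called lower (2.66%, against 0.102% of all probes called lower). Since these probes were chosen by the control change, their control medians, 1.41 and -1.69, are a description. The difference between the control and the AM change passed the test at 4 probes, all with a more positive control change (0.0177% of probes). Leaving out array 1 or 2 of 54h-Control, array 1 or 3 of 43h-Control, array 1 or 3 of 54h-AM or array 1 or 2 of 43h-AM gave 0 calls, with 1235 to 2707 probes at an unadjusted p under 0.05. Without array 2 of 43h-Control 18 were called, without array 3 of 43h-AM 2, and without array 3 of 54h-Control 1.

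**Figure D3:**
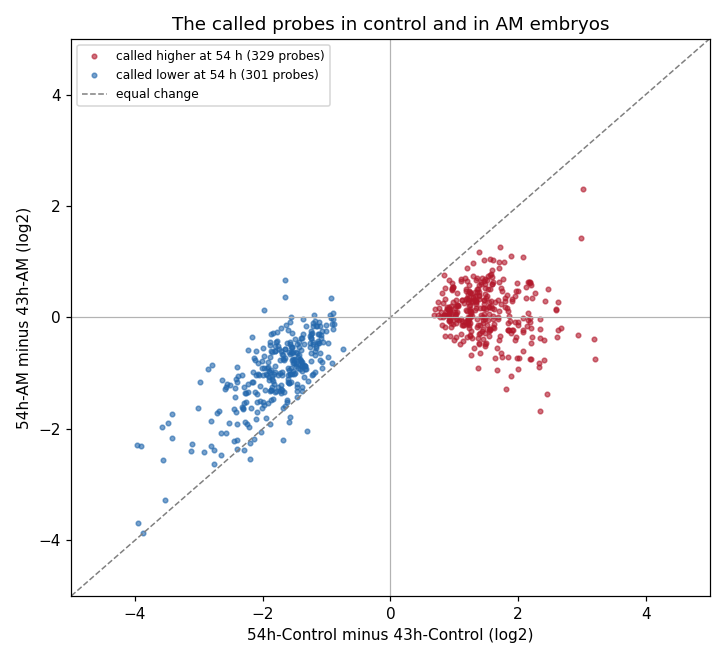
Change between 43 and 54 h (log2) of the 630 called probes in control embryos (horizontal) and in AM embryos (vertical), with rises in red, falls in blue and equal change as a dashed line. The 329 rises scatter around a vertical value of 0.11, and 293 of the 301 falls lie below 0, mostly nearer to 0 than the dashed line.

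Meg3 and Hspb1 were the genes with 1 symbol among those 4 probes. The called Meg3 probe read -0.40, -0.70 and -1.14 in 54h-AM and 0.58, -0.05 and -0.55 in 43h-AM, so its control change of 2.19 exceeded its AM change of -0.74 by 2.93 ± 0.52 (adjusted p = 0.042). Hspb1 read -3.86, -2.45 and -3.47 in 54h-AM and -2.21, -1.50 and -2.20 in 43h-AM, and its control change exceeded the AM change by 3.11 ± 0.54 (adjusted p = 0.042). In both genes the late AM arrays lay below every late control array. Ctsl was at the lower limit on all 3 arrays of 54h-AM and on 2 of 43h-AM, so its AM change has no measured size. Lipa fell in AM embryos too, at 1.77, 1.32 and 0.52 in 54h-AM and 3.73, 3.49 and 3.18 in 43h-AM, a change of -2.26 ± 0.42 (adjusted p = 0.018), and its control and AM changes differed by 0.06 ± 0.59. Tnni3 read 3.36, 3.63 and 2.87 in 54h-AM and 4.54, 4.55 and 4.24 in 43h-AM, a change of -1.16 that was not called, and the difference from the control change, -1.82 ± 0.85, was not called either. Rgs2, a regulator of G protein signalling, read -1.25, -0.78 and -1.21 in 54h-Control and -1.02, -0.55 and -0.60 in 43h-Control, while it read -3.14, -2.66 and -4.72 in 54h-AM and -0.34, 0.06 and -0.72 in 43h-AM. It fell in AM embryos by 3.17 (adjusted p = 0.0067) and was not called in controls, and the difference of the changes, 2.82 ± 0.75, was not called.

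**Figure D4:**
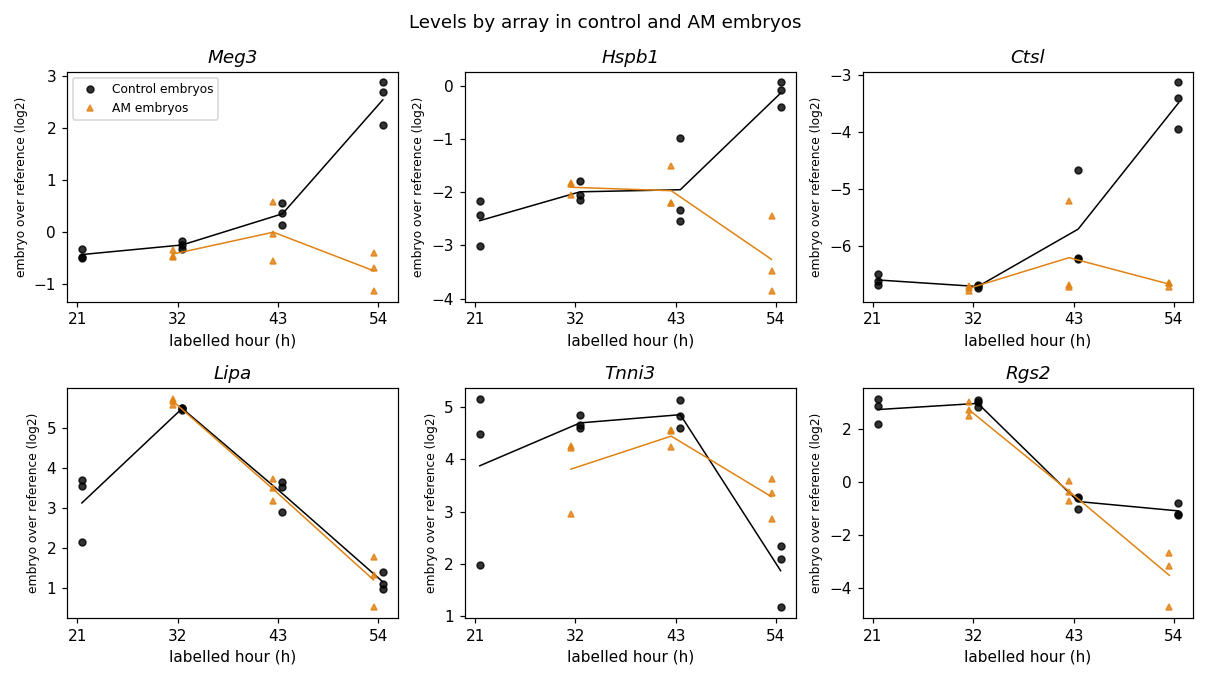
Centred log2 ratio on each array by labelled hour in control embryos (black circles, 21 to 54 h) and AM embryos (orange triangles, 32 to 54 h) for 6 genes, with lines through group means. Control and AM embryos part at 54 h for Meg3 (the probe whose change differed), Hspb1 and Ctsl, whereas Lipa falls in both.

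The steps before and after were read on other arrays. From 32 to 43 h in DMSO embryos the 329 rising probes had a median change of 0.83, with 290 positive and 158 called higher (48.0%, against 13.2% of all probes), and the 301 falling probes had a median of -0.88, with 277 negative and 110 called lower (36.5%, against 7.25%). From 21 to 32 h in controls the medians were -0.08 and 0.39, and 0 of the 329 and 3 of the 301 were called, all 3 higher, against 0.128% of all probes called (0.0576% higher and 0.0709% lower). From the 2-cell to the 4-cell stage the 329 had a median change of 0.76, with 137 called higher (41.6%, against 9.16% of all probes) and 2 lower, whereas the 301 had a median of -0.21, with 54 called lower (17.9%, against 3.96%) and 19 higher. Both classes thus held a larger share of probes called in their own direction than all probes did from 32 to 43 h in DMSO embryos and from the 2-cell to the 4-cell stage, but not from 21 to 32 h. The DMSO, 21 to 32 h and AM steps share each probe's estimate of spread with the step that chose the probes. How far this raised their shares of calls was not tested.

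Among the 14 named rises, 8 were called higher from the 2-cell to the 4-cell stage. Tspan4 read higher by 2.48, Elovl6 by 2.26, Ctsl by 2.17, Nolc1 by 2.03, Tfrc by 1.70, Pa2g4 by 1.61, Wipi2 by 1.52 and Castor1 by 1.31. Meg3, Taf7l, Cd247 and Tra2a differed by -0.57, -0.36, -0.12 and 0.40 and were not called. Of the 14 named falls, Cyp2a5 differed by -2.93 and Insc by -1.08 in 4-cell against 2-cell embryos, both called. In DMSO embryos from 32 to 43 h Tnni3 and Ptpro differed by 0.05 and -0.03, and Cd247 and Pa2g4 by 0.16 and 0.18, and none of the 4 was called there. Nolc1 was called lower at that step, by -1.40. Whether the steps differ was not tested.

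**Figure D5:**
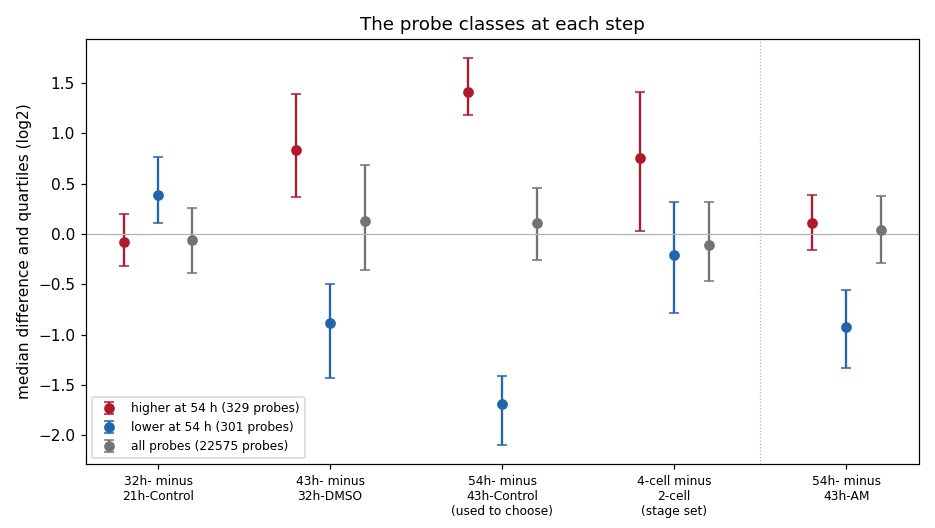
Median change (log2, points) with quartiles (bars) at each step for the 329 probes called higher at 54 h (red), the 301 called lower (blue) and all 22575 probes (grey). The control step from 43 to 54 h chose the probes, and on other arrays the red class lies at 0.83 from 32 to 43 h and at 0.11 in AM embryos, and the blue class at -0.88 and -0.92.

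Probes of one gene did not always tell the same. Of 72 called genes with several probes, 3 had all of them called. Of the 108 other probes of the remaining 69 genes, 78 differed in the same direction as the called one. The second probes of Sorbs2 and Lamp2 differed by -0.02 and 0.08, and those of Hspb1 and Pa2g4 by 0.65 and 0.64, none called. Rdx, a linker of actin to the cell membrane, had 1 called probe that fell by 2.00 and another that rose by 1.43.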

How the data were processed

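The series holds 64 two-colour arrays of mouse embryos against a common reference. Per the deposited values, each array gives a log10 ratio of its channels held within -2 and 2, which is 100-fold, as the authors deposited it. Background correction, normalization within the array, dyes and the direction of the ratio have no description in the labels or files used here. Each value was multiplied by minus the log2 of 10 and each array centred on its median. On the 6 control arrays 1.68% of values lay at a limit and 1.17% were exactly 0. Probe names came from the platform annotation: 4262 probes had 1 gene symbol (3089 genes), 6822 had several and 11491 had none and stay unnamed, and of those with 1 symbol 4247 matched RefSeq by gene ID.

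limma 3.58.1 in R 4.3.3 fitted 12 group means over the 36 treatment arrays, with Benjamini-Hochberg adjustment over 22575 probes. The stage arrays were fitted apart. Named genes were the 14 largest rises and 14 largest falls with 1 symbol that were called, did not overlap and had no array at a limit, and in each list up to 4 called genes a direction and up to 2 uncalled. A list counts each gene by its probe of lowest p. Members and lists were chosen with earlier results of these data known. Deviations of same-numbered control arrays correlated at 0.05, 0.25 and 0.00, and those of the AM arrays at 0.30, 0.31 and 0.22. Whether the numbers pair the arrays was not tested, and the main fit used no pairing. Alternatives covered scaling, arrays fitted, limits, the replicate block, the variance model and each array left out. The fit was run on simulated data with known changes, in which noise was drawn independently for each probe and array. That run could therefore not test how far the calls rest on single arrays.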

Additional observations from a re-analysis of the deposited data

Results flagged for a closer look

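The control change between 43 and 54 h differed from the AM change at 4 probes by limma's interaction contrast (adjusted p between 0.042 and 0.046). The control change exceeded the AM change by 3.11 at Hspb1 and by 2.93 at a Meg3 probe. At probe 3460 and probe 259, which have no single gene symbol, it did so by 5.21 and 3.47, with AM changes of -4.62 and -3.04 and control changes of 0.60 and 0.43. In the stage arrays 1 of 4 arrays stood apart for 2 of the 28 named genes. For Castor1 array 1 of the 2-cell embryos read -0.14, against 0.44 to 0.53 on the others. For Ggt6 array 2 of the 2-cell embryos read 0.34, against 1.01 to 1.13 on the others. Of 56 groups examined in this way, chance flags about 1 in 20.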

How the results depend on the processing

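Scaling gave a control total of 659 probes without centring, 605 with one interquartile range and 922 with quantile normalization, against 630. The share of calls that were higher was 72.1%, 64.3% and 56.5% in that order, against 52.2%. The fit of the 6 control arrays alone gave 1385 probes, and with a replicate block 1786, and a replicate block in the 36-array fit gave 709. Array 1 of 54h-Control correlated best with array 3 of 43h-Control, so the control numbers gave no clear pairing. Leaving out 1 array gave 50 to 609 probes. The 43h-DMSO arrays, chosen after seeing the data, gave 506, the 12 control arrays 911, the filter on limits 634 and the robust variance 620. The AM change gave 10 probes with one interquartile range, 0 in the fit of its 6 arrays with and without the replicate block, 22 with it in the 36-array fit, and 2 to 56 without 1 array. The difference of the changes gave 18 probes with quantile normalization, 0 in the fit of the 12 arrays compared, 1 with a replicate block there, 3 with the block in the 36-array fit, and 0 to 18 without 1 array. The change from the 2-cell to the 4-cell stage gave 1270 probes with 8 arrays, 481 with a replicate block, and 1837 to 4731 without 1 array. The causes were not tested. With the 43h-DMSO arrays Dppa4 turned to -0.022 and Zfp42 to -0.60. Zp2 lay between -0.42 and 0.16 without 1 array, turning to 0.16 without array 3 of 43h-Control and to 0.077 without array 1 of 54h-Control. None of the 28 largest changes turned direction under any alternative, but they were chosen for hours that do not overlap. Leaving out 1 array could therefore not turn them, nor could fits that changed only the other arrays or the variance model. Values at a limit bound Btg4, Ctsl with AM and Luc7l at 43 h.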
